A study of Mus musculus with 24 samples.

Results

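The laminin and integrin genes comprised every row of the count table named as a laminin alpha, beta or gamma chain (Lama, Lamb, Lamc), or as an integrin alpha or beta chain (Itga, Itgb). They numbered 37 of 24421 genes, 11 laminin chains and 26 integrin chains. Of the 37, 36 were among the 15385 genes with enough counts to be tested. Itgad, an alpha chain of myeloid cells, was counted at 0 to 12 reads per library and was not tested. The samples were 24 RNA-seq libraries of sciatic nerve from mice carrying floxed Nf1 alleles and PostnCre (Nf1 flox/flox PostnCre+), labelled as plexiform neurofibroma, a tumor of the peripheral nerve sheath. Treatment lasted 1 week and consisted of vehicle, of LY3214996, which inhibits the kinases ERK1/2 (group ERKi), of abemaciclib, which inhibits CDK4/6 (group CDKi), or of both drugs (group combination), with 6 libraries each. All 4 groups shared the genotype, so no group shows the effect of Nf1 loss itself. The Cre is driven by the Postn promoter, and each library came from whole nerve with all of its cell types. In such bulk tissue fewer cells of a type and less RNA per cell cannot be told apart. No label ties the libraries to separate animals, so p-values measure the spread between these samples, which may be technical in part.

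Laminins are secreted trimers of an alpha, a beta and a gamma chain that polymerise into the basement membrane around Schwann cells, perineurial cells and blood vessels. Integrins are surface receptors made of an alpha and a beta chain, which bind laminin, collagen, fibronectin and other matrix proteins, or, on leukocytes, proteins on other cells. In peripheral nerve, Schwann cells need laminin and its receptors to sort and myelinate axons.

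Promoter sequences are shown for the members with the lowest p-values after combined treatment that had a RefSeq promoter, Itga9, Lamb3 and Itga3. The choice was made after their values were seen. RefSeq promoters (build GRCm38.p6, 300 bases around a start, most of them upstream) were matched for 23 of the 37 members, 26 promoters in all. The motifs TGANTCA (AP-1), CCGGAAG (ETS) and GGAATG (TEAD) were searched on both strands, and matches, none of which overlap, are in capitals. The Itga9 window (chr9:118711442-118711741, plus strand) holds an AP-1 match, and it lies inside the longer gene annotated by GENCODE at chr9:118606690-118901003. The Lamb3 window (chr1:193301993-193302292, plus strand) holds a TEAD match on the minus strand and lies inside the gene annotated at chr1:193207699-193343878. The other Lamb3 window holds no match. Itga3 has 2 windows, at chr11:95076665-95076964 with an ETS match and at chr11:95069149-95069448 with an AP-1 match, both on the minus strand.
Itga9: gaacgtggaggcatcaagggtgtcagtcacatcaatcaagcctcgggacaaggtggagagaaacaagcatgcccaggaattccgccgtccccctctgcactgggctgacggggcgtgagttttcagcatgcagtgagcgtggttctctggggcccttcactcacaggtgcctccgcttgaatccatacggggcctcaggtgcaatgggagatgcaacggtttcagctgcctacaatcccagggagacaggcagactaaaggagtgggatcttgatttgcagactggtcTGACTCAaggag
Lamb3: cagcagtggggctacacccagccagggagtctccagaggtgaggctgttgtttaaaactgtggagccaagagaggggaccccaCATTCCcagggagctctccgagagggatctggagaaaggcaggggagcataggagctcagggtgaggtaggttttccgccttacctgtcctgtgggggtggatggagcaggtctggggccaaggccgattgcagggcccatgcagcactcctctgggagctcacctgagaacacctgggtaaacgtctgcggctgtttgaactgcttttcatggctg
Itga3, upstream start: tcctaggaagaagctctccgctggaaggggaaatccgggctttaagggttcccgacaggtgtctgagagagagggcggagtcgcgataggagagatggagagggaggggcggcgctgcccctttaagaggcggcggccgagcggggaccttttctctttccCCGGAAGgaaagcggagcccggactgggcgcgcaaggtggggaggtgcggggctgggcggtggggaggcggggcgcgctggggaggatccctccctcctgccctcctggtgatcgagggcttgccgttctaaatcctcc
Itga3, internal start: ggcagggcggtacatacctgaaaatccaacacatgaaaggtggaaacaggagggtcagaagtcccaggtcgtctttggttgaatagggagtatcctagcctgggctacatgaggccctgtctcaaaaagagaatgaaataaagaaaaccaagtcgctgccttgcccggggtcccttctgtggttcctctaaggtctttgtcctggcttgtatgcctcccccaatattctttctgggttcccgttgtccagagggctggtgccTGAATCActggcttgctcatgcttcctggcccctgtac
An AP-1 match was present in 3 of the 26 member promoters (11.5%), against 7.81% of 32851 RefSeq mouse promoters of the same length. An ETS match was present in 1 (3.85%, against 8.86%) and a TEAD match in 3 (11.5%, against 14.7%). These matches describe letters in the windows and are not measured binding sites. Itgb3 lies at chr11:104608000-104670476 on the plus strand.

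Library totals ranged from 5391543 to 42321550 counts. Levels below are in CPM, counts scaled by library size with edgeR, or CPM per kilobase of exon where genes are compared with each other. Summed over the 9 Schwann cell markers, libraries held 5386 to 29799 CPM, with the lowest sums in ERKi library 3 (5386) and combination library 2 (7845). Neuron markers averaged below 6 on the log2 CPM scale in 6 libraries, vehicle 1 and 5, CDKi 3 and 5, and combination 3 and 5 (neuron-poor libraries below). Alb, a liver transcript, exceeded 100 CPM in 3 libraries, ERKi 3, CDKi 1 and CDKi 3 (liver-positive libraries below).

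The laminin chains of Schwann cell and vessel basement membranes dominated in every group. Per kilobase, vehicle nerves held 62.2 ± 7.22 CPM per kb of Lama2, the alpha chain of the Schwann cell basement membrane (SD, n = 6). Lama4, an alpha chain of vessels and nerve, followed at 47.6 ± 8.63, and Lama5, an alpha chain of mature vessels, at 11.4 ± 4.09 CPM per kb. The epithelial chain Lama3 stood at 1.85 ± 1.00 and Lama1, an alpha chain mainly of embryonic basement membranes, at 0.282 ± 0.114 CPM per kb. As a share of all alpha chain RNA per kilobase, the median over 24 libraries was 47.3% for Lama2, 39.2% for Lama4, 11.3% for Lama5, 1.31% for Lama3 and 0.232% for Lama1. Among beta chains Lamb1 made up 56.6% to 70.9% and Lamb2 28.9% to 43.3% of the family total. Lamc1, the gamma chain shared by most trimers, made up 91.9% to 98.2% of gamma chain RNA. The nerve therefore held chiefly the RNA of Lama2, Lama4, Lamb1, Lamb2 and Lamc1, and the epithelial chains Lama3 and Lamb3 were minor.

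Among integrin beta chains Itgb1, the common partner of most laminin and collagen receptors, was highest at 190 ± 35.8 CPM per kb in vehicle. Itgb8, which pairs with Itgav and releases active TGF-beta, stood at 71.5 ± 17.4 and Itgb4, the laminin receptor chain that pairs only with Itga6, at 48.9 ± 15.7 CPM per kb. Itgb5 followed at 29.7 ± 2.56 and Itgb3 at 10.6 ± 4.57 CPM per kb. The highest alpha chains were Itga6, a laminin receptor, and Itgav, a receptor of matrix proteins with an RGD motif. They stood at 71.1 ± 12.99 and 60.6 ± 11.9 CPM per kb, a difference within their spread. Itga7 (laminin receptor), Itga1 and Itga2 (collagen receptors) formed the next tier at 12.1 ± 3.50, 11.8 ± 3.35 and 10.7 ± 3.63 CPM per kb, again within their spread. The leukocyte chains were lower, from 5.55 ± 1.06 CPM per kb for Itgb2, the common beta chain of leukocyte integrins, and 3.48 ± 1.02 for Itgam to 0.0949 ± 0.0879 for Itgad. Over the 24 libraries Itga6 made up 22.1% to 44.3% of alpha chain RNA, Itgav 24.5% to 39.9%, and Itgb1 45.3% to 62.6% of beta chain RNA.

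**Figure D1:**
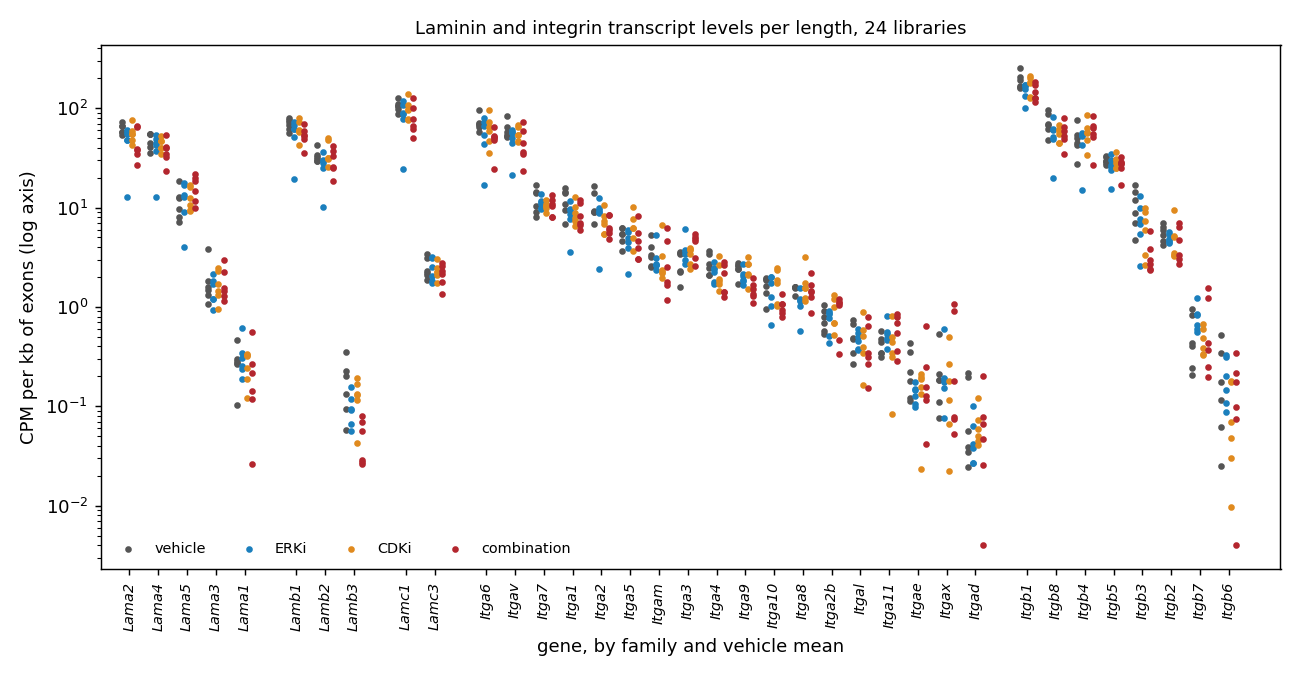
CPM per kilobase of exon (log axis) of the laminin and integrin genes reported here in the 24 libraries, ordered within family by vehicle mean and coloured by treatment. The 0 values of Itgad and Itgb6 in combination library 5 are drawn at the bottom, Itgb1 is the highest member, and in each of the tested members the points of any 2 treatments overlap.

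The first question was whether either inhibitor alone changed these genes. With ERKi, 0 of 36 members passed the quasi-likelihood test of edgeR after Benjamini-Hochberg adjustment over all genes, where 0% of all 15385 genes passed. At an unadjusted p under 0.05 the count was again 0 of 36, against 6.34% of all genes. DESeq2 and limma-voom also called 0 members with ERKi, and each gave 2 members at an unadjusted p under 0.05. With CDKi, edgeR called 0 of 36 members (0% of all genes), and 0 of 36 had an unadjusted p under 0.05 (3.12% of all genes). DESeq2 called 0 with 2 at an unadjusted p under 0.05, and limma-voom called 0 with 0. Over all genes, the 13 alternative settings, DESeq2 and limma-voom among them, called 0 to 11 genes with ERKi and 0 to 58 with CDKi.

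Most members nonetheless lay below vehicle by small amounts. With ERKi the log2 fold change was below 0 in 30 of 36 members, where 50.0% of all genes were below 0, and the median was -0.24 for the members and 0.00024 for all genes. With CDKi it was below 0 in 27 of 36 (51.8% of all genes), with medians of -0.13 and -0.0068. With the combination it was below 0 in 28 of 36 (43.6% of all genes), with medians of -0.28 and 0.036. These counts were the same under RLE and upper quartile scaling, but other settings moved them. With ERKi the median over members was -0.11 by limma-voom (24 of 36 below 0), -0.11 with the neuron marker mean as a covariate (26) and -0.15 without the neuron-poor libraries (26). With CDKi it was -0.068 without vehicle library 1 (21 below 0), -0.085 without CDKi 1 (26), -0.070 without CDKi 2 (24) and -0.070 without CDKi 4 (21). Other settings moved the median further below 0. It was -0.33 with ERKi without the deepest and shallowest library (30 below 0). With CDKi it was -0.18 without vehicle library 6 (26) and -0.17 without CDKi 3 (26). With the combination it ran both ways, -0.21 without vehicle library 3 (26) and -0.35 without combination 3 (28). The 3 comparisons share the vehicle libraries, so they are not independent of each other. No group of a member lay wholly below or above vehicle in any of the 3 comparisons, where all libraries lay below in 0.136%, 0.0260% and 0.578% of all genes, and above in 0.104%, 0.0650% and 0.279%, with ERKi, CDKi and the combination.

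In the ERKi group the smallest p-values belonged to Itgb1, Itga1 and Lamb3. Itgb1 ranged from 645 to 1025 CPM in vehicle (median 729) and from 409 to 705 with ERKi (median 661). The log2 fold change was -0.34 ± 0.17 (SE, edgeR adjusted p = 0.672), and 6 of 6 ERKi libraries were below the vehicle mean although the groups overlapped. Itga1 went from 128 to 291 CPM in vehicle (median 230) and from 66.4 to 215 with ERKi (median 167), a log2 fold change of -0.49 ± 0.25 (edgeR adjusted p = 0.672). Without the liver-positive libraries, of which ERKi 3 is the only one in the ERKi group, the median over members was -0.16 and 29 of 36 were below 0. In the CDKi group the smallest p-values belonged to Itga2, Itgb3 and Itga1, with log2 fold changes of -0.56 ± 0.28, -0.74 ± 0.37 and -0.41 ± 0.25 (edgeR adjusted p = 1.00 for each).

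**Figure D2:**
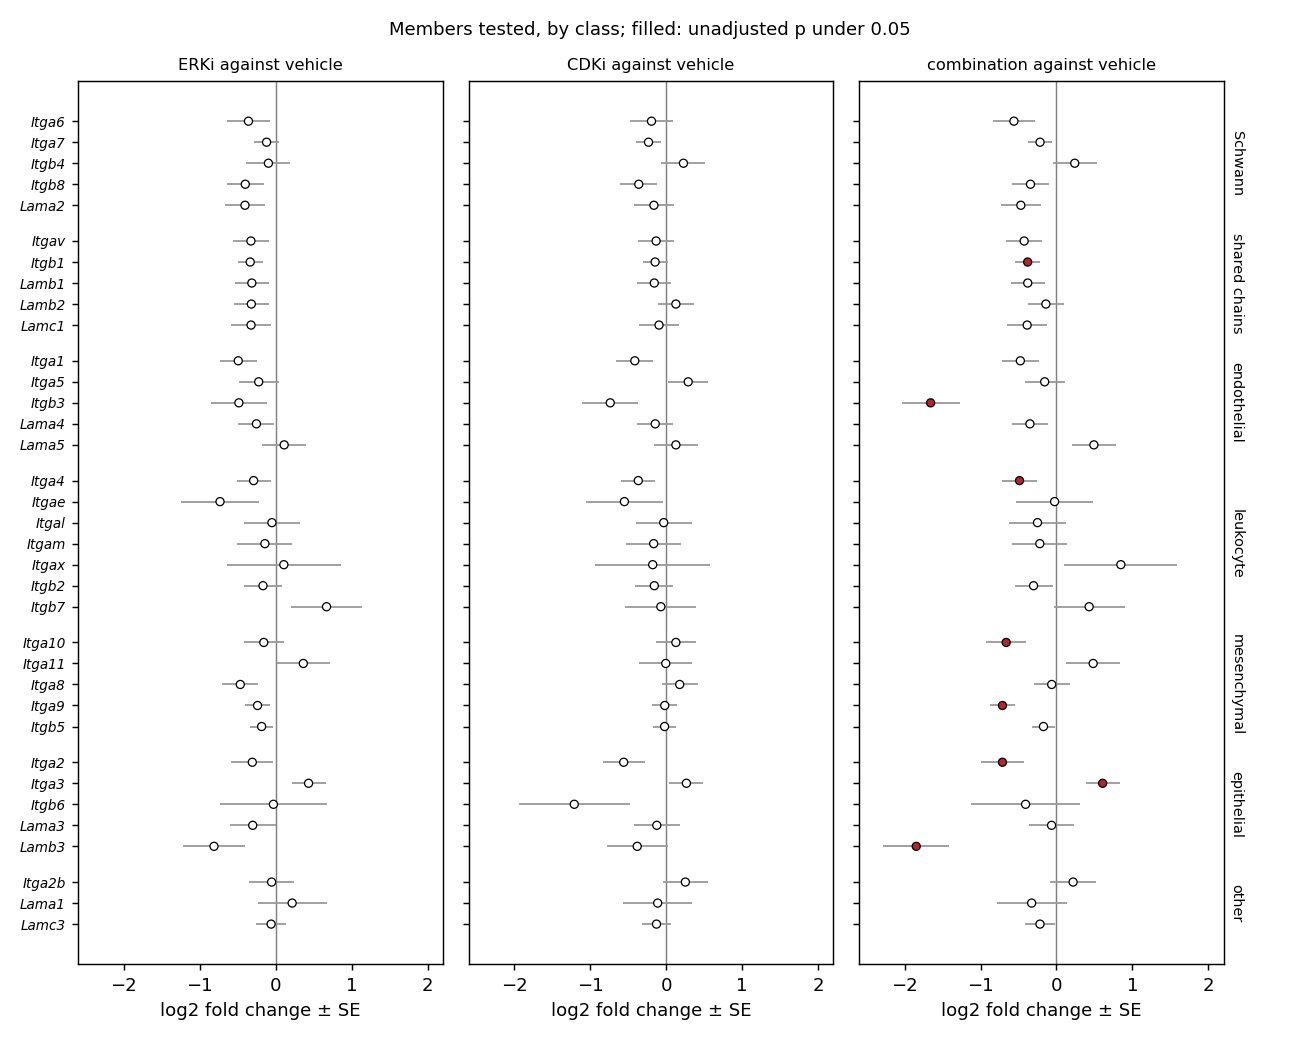
Log2 fold change against vehicle with its standard error for the tested members reported here by class, for ERKi, CDKi and the combination. Filled points have an unadjusted p under 0.05, which 8 members reached with the combination and none with ERKi or CDKi.

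The combination gave the widest spread among members. edgeR called 0 of 36 members at an adjusted p under 0.05, where 0.123% of all genes (19) were called. At an unadjusted p under 0.05 there were 8 of 36 members against 11.5% of all genes. Of these, 7 were lower than vehicle (6.58% of all genes were) and 1 was higher (4.93% of all genes were). limma-voom called 0 with 16 at an unadjusted p under 0.05, and its count over all genes is given in the last section. DESeq2 called 3, Itgb3, Itga9 and Lamb3, with 9 at an unadjusted p under 0.05, and it called 282 of all genes. Shares of all genes at an unadjusted p are given for edgeR only. The unadjusted member counts of DESeq2 and limma-voom, in this and every other comparison, therefore have no background. They cannot be read as a result about the members.

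Itgb3 encodes the beta chain that pairs with Itgav as a vitronectin receptor of vessels, osteoclasts and mesenchymal cells, and with Itga2b as the fibrinogen receptor of platelets. Its level ranged from 28.0 to 99.1 CPM in vehicle (median 61.1), 15.3 to 76.6 with ERKi (median 43.1), 15.5 to 58.4 with CDKi (median 39.3) and 14.04 to 34.6 with the combination (median 16.9). In the combination group 5 of 6 libraries lay below every vehicle library, and the overlap came from combination 3 (34.6) and vehicle 4 (28.0). The log2 fold change with the combination was -1.66 ± 0.38 (95% interval -2.45 to -0.86, edgeR adjusted p = 0.0770). DESeq2 gave an adjusted p of 0.0028. Against ERKi alone the combination gave -1.17 ± 0.38 (edgeR adjusted p = 0.436) and against CDKi alone -0.92 ± 0.37 (0.568). The test for a departure from additive effects gave -0.44 ± 0.52 for Itgb3 (edgeR adjusted p = 0.988).

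The alpha chains that pair with Itgb3 had smaller differences, and Itga2b, like Lama3 below, is named as a partner after the values were seen. Itgav was at 551 to 891 CPM in vehicle (median 600.2) and 249 to 789 with the combination (median 435), with a log2 fold change of -0.43 ± 0.24 (edgeR adjusted p = 0.518). Itga2b was at 2.93 to 5.68 CPM in vehicle and 1.83 to 6.57 with the combination, with a log2 fold change of 0.22 ± 0.30 (edgeR adjusted p = 0.855). The platelet marker list (6 genes, 3 of them tested) summed to 2.91 to 10.4 CPM in vehicle and 2.58 to 7.70 with the combination, and its marker Gp9 was at 0 in all vehicle libraries. The 10 endothelial markers summed to 135 to 251 CPM in vehicle and 202 to 584 with the combination. Within the combination group, combination 3 was highest both in this sum and in Itgb3. The 8 fibroblast markers summed to 9134 to 14819 CPM in vehicle and 4317 to 11809 with the combination. The part of platelets, vessels and fibroblasts in the Itgb3 value was not tested.

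Itga9, which pairs with Itgb1 and binds tenascin C and osteopontin, ranged from 13.02 to 21.5 CPM in vehicle (median 19.1), 12.9 to 20.6 with ERKi (median 15.0), 11.5 to 24.3 with CDKi (median 18.6) and 8.46 to 15.0 with the combination (median 10.95). Again 5 of 6 combination libraries lay below every vehicle library, and combination 3 and vehicle 4 overlapped. The log2 fold change was -0.71 ± 0.17 (95% interval -1.06 to -0.36, edgeR adjusted p = 0.0839). Against CDKi alone the combination gave -0.69 ± 0.17 for Itga9 (edgeR adjusted p = 0.239), and against ERKi alone -0.47 ± 0.17 (0.450). DESeq2 called Itga9 against vehicle (adjusted p = 0.0096) and against CDKi.

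Lamb3, the beta chain of an epithelial laminin, was near the limit of detection. It ranged from 0.384 to 2.32 CPM in vehicle (median 1.12), 0.375 to 1.02 with ERKi (median 0.615), 0.285 to 1.29 with CDKi (median 0.876) and 0.173 to 0.525 with the combination (median 0.281). These rest on 122 reads over the 6 vehicle libraries and 28 over the 6 combination libraries, 3 of which had 3 reads each. In the combination group 4 of 6 libraries lay below every vehicle library. The log2 fold change was -1.85 ± 0.44 (95% interval -2.76 to -0.93, edgeR adjusted p = 0.0839), and DESeq2 gave an adjusted p of 0.0124. Its trimer partner Lama3 had a log2 fold change of -0.06 ± 0.30 (edgeR adjusted p = 0.961).

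The call for these 3 members depended on which libraries were included and which tool was used. The parts of effect size, spread and adjustment over all genes in this were not tested. Without vehicle library 4 the edgeR adjusted p was 0.0328 for Itgb3, Itga9 and Lamb3, and without ERKi library 3, which is in neither group, it was 0.0366 for Itgb3. Without the 3 liver-positive libraries, none of which is a vehicle or combination library, it was 0.0232, 0.0484 and 0.0429. Without the 6 neuron-poor libraries it was 0.639, 0.571 and 0.611, with log2 fold changes of -1.45, -0.66 and -1.88. Sample titles are numbers below or above 5000, and a term for that series gave -1.59, -0.71 and -1.92. Within the lower and the higher series the difference in mean log2 CPM between combination and vehicle was -1.52 and -1.81 for Itgb3, -0.66 and -0.80 for Itga9, and -1.67 and -2.21 for Lamb3 (3 against 2 and 3 against 4 libraries). Within the neuron-poor libraries (2 against 2) and the others (4 against 4) it was -2.04 and -1.39 for Itgb3, -0.88 and -0.64 for Itga9, and -1.88 and -1.78 for Lamb3. These 3 members had the smallest p-values of this comparison in the same libraries, so shared signs in these splits are not independent evidence.

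**Figure D3:**
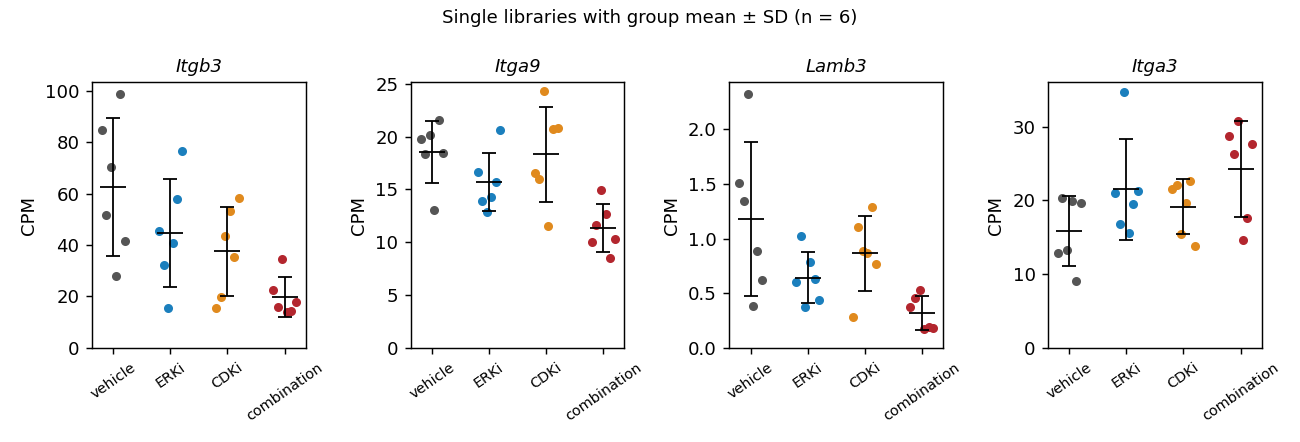
CPM of Itgb3, Itga9, Lamb3 and Itga3 in each library by treatment, with the group mean and SD (n = 6). The combination libraries lie mostly below vehicle for Itgb3, Itga9 and Lamb3 and mostly above it for Itga3, with overlap in each.

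The other 5 members with an unadjusted p under 0.05 were Itga3, Itga2, Itga10, Itgb1 and Itga4, of which Itga3 and Itga10 are named because of these values. Itga3, a laminin receptor chain that pairs with Itgb1, was the only one above vehicle, at 9.11 to 20.4 CPM in vehicle (median 16.4) and 14.7 to 30.8 with the combination (median 26.9). In 4 of 6 combination libraries it was above every vehicle library, and the log2 fold change was 0.61 ± 0.22 (edgeR adjusted p = 0.258). Itga2, a collagen receptor chain, was at 48.6 to 117 CPM in vehicle (median 65.1) and 34.7 to 60.3 with the combination (median 43.2), a log2 fold change of -0.71 ± 0.28 (edgeR adjusted p = 0.296). Itga10, another collagen receptor chain, had -0.66 ± 0.27 (edgeR adjusted p = 0.312). Exons of Itga10 overlap Gm42957 on the same strand over 33.5% of their length, so reads could be shared. Itgb1 was at 475 to 753 CPM with the combination (median 559), a log2 fold change of -0.38 ± 0.17 (edgeR adjusted p = 0.366). Itga4, described below, had -0.49 ± 0.22 (edgeR adjusted p = 0.403).

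The Schwann cell members (Lama2, Itga6, Itga7, Itgb4 and Itgb8) lay below vehicle in 5 of 5 with ERKi, 4 of 5 with CDKi and 4 of 5 with the combination. Of all genes, 50.0%, 51.8% and 43.6% did. The median log2 fold changes of these members were -0.36, -0.19 and -0.34. Lama2 was at 874 to 1173 CPM in vehicle (median 1013), 207 to 998 with ERKi (median 842), 692 to 1230 with CDKi (median 897) and 443 to 1077 with the combination (median 624.8). Its log2 fold change was -0.41 ± 0.27 with ERKi and -0.47 ± 0.27 with the combination (edgeR adjusted p = 0.672 and 0.526), and all of the groups overlapped. Itga6 was at 522 to 865 CPM in vehicle (median 620.1) and 220 to 578 with the combination (median 457), with a log2 fold change of -0.56 ± 0.28 (edgeR adjusted p = 0.459) and 6 of 6 libraries below the vehicle mean. Itgb4 stood apart from its partner, with 194 to 529 CPM in vehicle (median 332) and 190 to 585 with the combination (median 418), a log2 fold change of 0.24 ± 0.29 (edgeR adjusted p = 0.830).

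The spread between libraries of a group was wide in these genes. In ERKi library 3 Lama2 was at 23.1% of the median of the other ERKi libraries, Itga6 at 25.5%, Itgb4 at 27.9% and Itgb8 at 32.5%, while Itga7 was at 96.5%. In combination library 2 the same genes were at 70.5%, 48.0%, 42.7% and 59.6%, and Itga7 at 96.98%. The summed Schwann markers were lowest in these same libraries. ERKi 3 was also the lowest of its group in the summed endothelial (124 CPM), fibroblast (3489 CPM) and pericyte and smooth muscle markers (171 CPM). It was the highest in neuron markers (8055 CPM). The endothelial members Itga1, Lama4 and Lama5 were lowest in ERKi 3 too (66.4, 155 and 45.8 CPM), so the drop was not confined to Schwann cell members. In the CDKi group Itgb4 went with the Schwann marker sum in some libraries and not in others. CDKi 5 was highest in both, with a sum of 29799 CPM and 599 CPM of Itgb4. CDKi 1 had the lowest sum (13810 CPM) and 440 CPM of Itgb4, and CDKi 6 had a sum of 21319 CPM and the lowest Itgb4 (237 CPM). Without ERKi 3 the ERKi log2 fold changes were -0.21 for Lama2, -0.17 for Itga6, -0.23 for Itgb8 and 0.083 for Itgb4. In vehicle the markers summed to 19295 to 29276 CPM (median 20810) and with the combination to 7845 to 25657 (median 19152), and their part in the group differences was not tested.

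Ratios within a library do not depend on its scaling, and 6 of them were compared with vehicle by an exact two-sided permutation test, 18 tests in all. The log2 ratio of Itgb4 to Itga6 reads was -1.43 to -0.27 in vehicle (mean -0.95 ± 0.42, SD) and -0.40 to 0.12 with the combination (-0.12 ± 0.19). The difference of 0.82 had an exact permutation p of 0.0043 (n = 6 and 6, smallest possible 0.0022) and 0.078 after Benjamini-Hochberg adjustment, so it did not pass. All 6 combination libraries were above the vehicle mean. The same ratio was -0.61 ± 0.35 with ERKi and -0.47 ± 0.60 with CDKi. Within the lower and higher title series the combination difference was 0.75 and 0.85, and without the neuron-poor libraries it was 0.69 (exact permutation p = 0.0571, n = 4 and 4, smallest possible 0.0286). This ratio had the smallest p of the 18 tests in the same libraries, so these splits are not independent evidence. Part of the Itgb4 exons, 7.66%, lies opposite B230344G16Rik on the other strand. The other 5 ratios (Lama2 to Lama4, Lamb1 to Lamb2, Itga7 to Itga6, Itgb2 to Itgb1 and Itgb8 to Itgb1) gave adjusted exact p-values of 0.472 or more in every comparison.

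**Figure D4:**
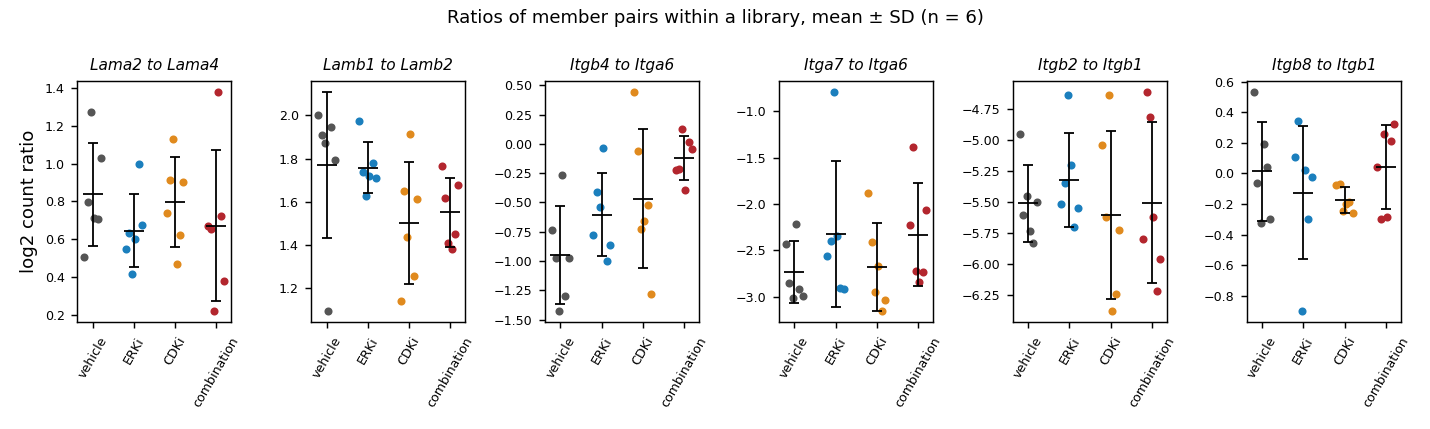
Log2 ratio of read counts for 6 pairs of members in each library by treatment, with group mean and SD (n = 6). For Itgb4 to Itga6 the combination libraries (-0.40 to 0.12) lie above all but the highest vehicle library (-0.27).

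The endothelial members (Lama4, Lama5, Itga1, Itga5 and Itgb3) did not move as a block. Their median log2 fold change was -0.25 with ERKi, -0.14 with CDKi and -0.35 with the combination. Lama5 lay above vehicle in all 3 comparisons, at 81.1 to 209 CPM in vehicle (median 127) and 112 to 246 with the combination (median 189), with a log2 fold change of 0.49 ± 0.29 (edgeR adjusted p = 0.543). Without the deepest and the shallowest library the Lama5 value turned to -0.10 with ERKi and -0.06 with CDKi. As a share of alpha chain RNA per kilobase, Lama5 was 5.89% to 13.7% in vehicle (mean 9.12% ± 2.55, SD, n = 6) and 10.3% to 21.6% with the combination (16.3% ± 4.10). Lama4 was at 428 to 669 CPM in vehicle (median 598) and 281 to 645 with the combination (median 448), a log2 fold change of -0.35 ± 0.24 (edgeR adjusted p = 0.604). Itga5, the fibronectin receptor chain, had log2 fold changes of -0.22 ± 0.26, 0.29 ± 0.26 and -0.16 ± 0.26 with ERKi, CDKi and the combination. The summed endothelial markers had medians of 183 CPM in vehicle, 210 with ERKi, 204 with CDKi and 296 with the combination, and their part in the Lama5 value was not tested.

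The leukocyte members were low and varied widely between single libraries. Of the 7 tested, 5 lay below vehicle with ERKi, 7 with CDKi and 5 with the combination (50.0%, 51.8% and 43.6% of all genes did). Their median log2 fold changes were -0.14, -0.16 and -0.22. Itgb2 was at 12.7 to 21.4 CPM in vehicle (median 17.04), 13.6 to 17.3 with ERKi (median 14.6), 9.88 to 29.0 with CDKi (median 13.1) and 8.29 to 21.2 with the combination (median 12.2). Its partner Itgam, the complement receptor chain of macrophages and neutrophils, was at 12.7 to 26.4 CPM in vehicle (median 16.3) and 5.89 to 31.2 with the combination (median 10.9). The log2 fold changes with the combination were -0.30 ± 0.25 for Itgb2 and -0.22 ± 0.36 for Itgam (edgeR adjusted p = 0.707 and 0.882). Exons of Itgam overlap Gm49368 on the same strand over 68.7% of their length, so its count is uncertain.

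Itga4, which pairs with Itgb1 or Itgb7 and binds vascular VCAM1 and fibronectin, was at 29.4 to 51.3 CPM in vehicle (median 36.3), 23.9 to 39.9 with ERKi (median 32.5), 20.3 to 45.7 with CDKi (median 26.1) and 17.7 to 39.6 with the combination (median 25.4). Itgal, the alpha chain of the lymphocyte adhesion receptor for ICAM1, was at 1.76 to 4.88 CPM in vehicle (median 3.16) and 1.01 to 5.17 with the combination (median 2.15), a log2 fold change of -0.25 ± 0.37 (edgeR adjusted p = 0.865). Itgb7, the mucosal homing chain, was at 0.571 to 2.66 CPM in vehicle and 0.540 to 4.34 with the combination, with log2 fold changes of 0.67 ± 0.46 with ERKi and 0.43 ± 0.47 with the combination (edgeR adjusted p = 0.672 and 0.806). The groups overlapped for each of these genes. The 8 leukocyte markers summed to 96.9 to 163 CPM in vehicle (median 121) and 55.9 to 266 with the combination (median 86.4). The 10 macrophage markers summed to 411 to 598 CPM in vehicle (median 513) and 212 to 806 with the combination (median 374). The highest leukocyte sums in their groups were in ERKi 3 (215), CDKi 3 (210) and combination 3 (266), where Itgam was also highest, and their part in the group values was not tested. Other members did not all peak in those libraries: Itgb7 was highest in CDKi 5 (1.88 CPM), the CDKi library with the lowest leukocyte sum (73.6), Itgb2 in ERKi 2 (17.3 CPM, against 16.4 in ERKi 3), and Itgal and Itgb7 in combination 2.

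**Figure D5:**
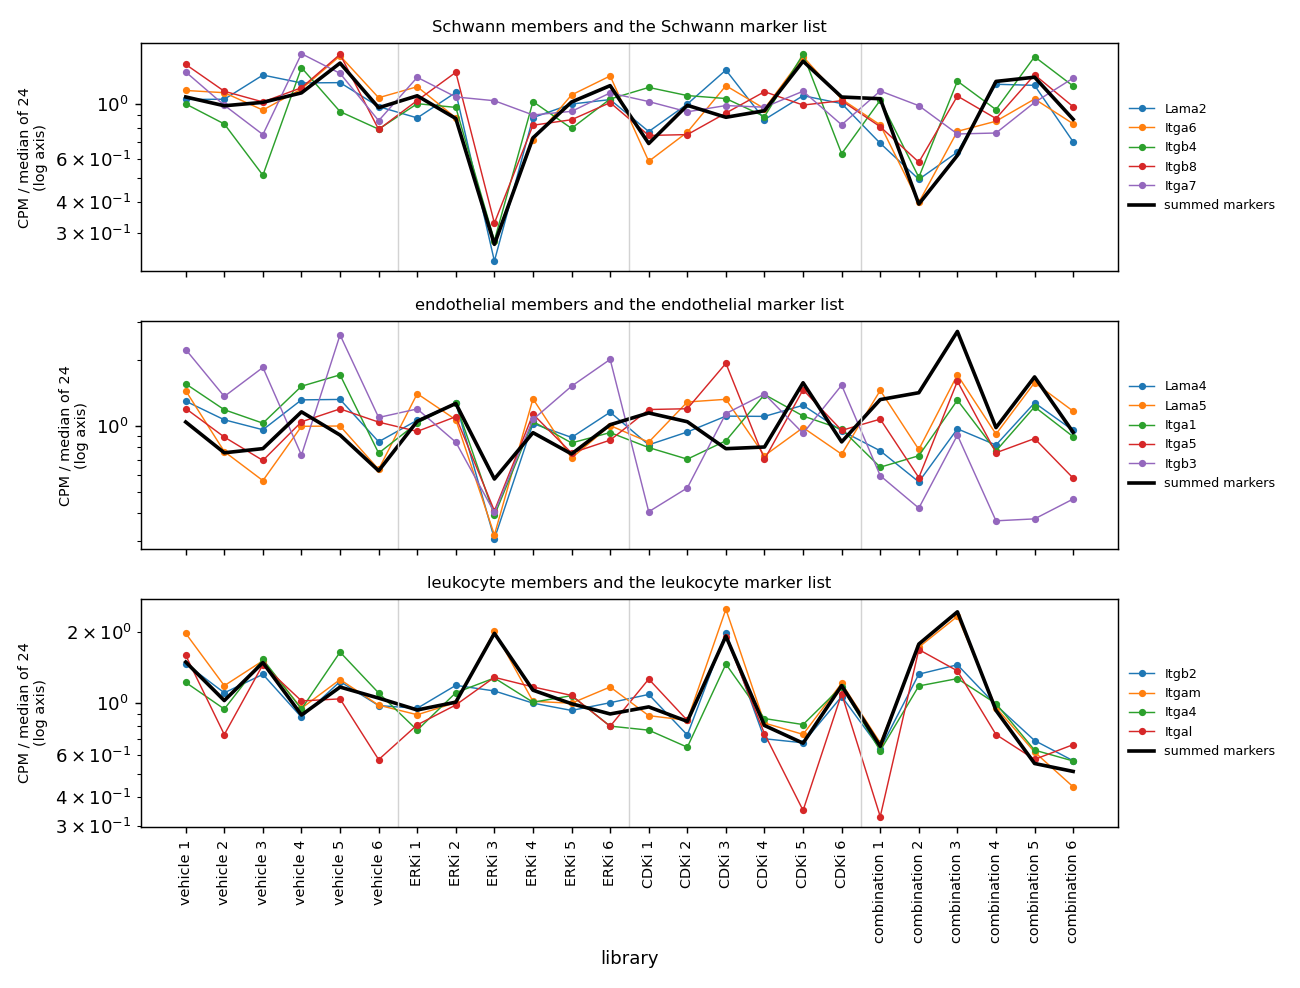
CPM of Schwann cell, endothelial and leukocyte members in each library, divided by the median of the 24 libraries (log axis), with the summed marker list of the same cell type in black. Lama2, Itga6, Itgb4 and Itgb8 drop with the Schwann markers in ERKi 3, where the endothelial members Itga1, Lama4 and Lama5 drop as well. Itgam peaks with the leukocyte markers in ERKi 3, CDKi 3 and combination 3, and Itgb3 lies low in most combination libraries.

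The shared chains Lamb1, Lamb2, Lamc1, Itgb1 and Itgav lay below vehicle in 5 of 5 with ERKi and with the combination and in 4 of 5 with CDKi. Of all genes, 50.0%, 43.6% and 51.8% did. The medians of these chains were -0.33, -0.38 and -0.13. Lamc1 was at 729 to 1041 CPM in vehicle (median 877), 203 to 984 with ERKi (median 725) and 417 to 1055 with the combination (median 597). Its log2 fold change was -0.33 ± 0.27 with ERKi and -0.39 ± 0.27 with the combination (edgeR adjusted p = 0.680 and 0.614). Lamb1 had -0.32 ± 0.22 and -0.38 ± 0.22 and Lamb2 had -0.32 ± 0.23 and -0.14 ± 0.23 in the same comparisons. The lowest library was ERKi 3 in the ERKi group and combination 2 in the combination group for all 5 genes. Without ERKi 3 the ERKi values were -0.14 for Lamc1, -0.14 for Lamb1 and -0.16 for Lamb2.

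Between the treated groups, edgeR called 0 of 36 members for the combination against ERKi (0% of all genes), with 3 at an unadjusted p under 0.05 (9.34% of all genes), Itga9, Itgb3 and Lamb3, all lower (3.61% of all genes were). Against CDKi it called 0 (0.00650% of all genes), with 4 at an unadjusted p under 0.05 (7.07% of all genes), the same 3 and Itga10, all lower (4.71% of all genes were). DESeq2 called 0 and 1 in these comparisons and limma-voom 0 and 0, with 3 and 4 members, and 6 and 5 members, at an unadjusted p under 0.05. ERKi against CDKi gave 0 (0% of all genes), with 2 at an unadjusted p under 0.05 (4.54% of all genes), both lower with ERKi (2.53% of all genes were). Itga8, an alpha chain of mesenchymal cells that pairs with Itgb1, was among them and is named for that reason. DESeq2 and limma-voom called 0 there, with 2 and 0 at an unadjusted p under 0.05. The test of departure from additive effects called 0 of 36 (0% of all genes) and gave 0 at an unadjusted p under 0.05 (3.69% of all genes). Any difference among the 4 groups was called for 0 of 36 (0% of all genes), with 4 at an unadjusted p under 0.05 (8.14% of all genes). For the departure from additive effects DESeq2 and limma-voom called 0, with 0 and 3 members at an unadjusted p under 0.05. For any difference DESeq2 called 2, Itga9 and Itgb3, and limma-voom 0, with 4 and 5 at an unadjusted p under 0.05. Over all genes, settings other than leaving out 1 library called 0 to 71 for the combination against ERKi and 0 to 143 against CDKi. They called 0 for ERKi against CDKi, 0 to 155 for the departure from additive effects and 0 to 188 for any difference. The counts of DESeq2 by itself are not given, so these ranges are no background for its member calls.

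Other genes of the pathway were described from 4 lists: basement membrane partners of laminin, the dystroglycan complex (a laminin receptor that is not an integrin), integrin adaptors inside the cell, and integrin ligands. With the combination edgeR called 0 of 8 partners, 0 of 13 dystroglycan genes, 0 of 21 adaptors and 1 of 13 ligands, where 0.123% of all genes were called. The called ligand was Thbs1, thrombospondin, a matrix protein bound by several integrins. Thbs1 was at 200.2 to 540 CPM in vehicle (median 339), 40.1 to 324 with ERKi (median 145), 153 to 508 with CDKi (median 279) and 34.1 to 157 with the combination (median 56.1), and no combination library reached the lowest vehicle library. It fell by 2.33 on the log2 scale (SE 0.44, edgeR adjusted p = 0.0361), although 15 of 24 fits that each left out 1 library lost the call (highest adjusted p = 0.113), and leaving out the neuron-poor libraries gave 0.255. The call was also lost with no count filter (0.0708), with a term for the title series (0.0507) and without the deepest and shallowest library (0.192).

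Among the ligands Tnc, tenascin C, which Itga9 binds, was at 30.0 to 86.2 CPM in vehicle (median 48.8) and 15.8 to 42.3 with the combination (median 18.9), a log2 fold change of -1.22 ± 0.32 (edgeR adjusted p = 0.123). Spp1, osteopontin, another ligand of Itga9 and Itgb3 receptors, had -0.70 ± 0.35 (edgeR adjusted p = 0.450). Among the partners Nid1, which links laminin to collagen IV, was at 518 to 1070 CPM in vehicle (median 863) and 361 to 614 with the combination (median 519), a log2 fold change of -0.72 ± 0.27 (edgeR adjusted p = 0.266). All 8 partners were below vehicle with ERKi and with the combination, where 50.0% and 43.6% of all genes were. Their medians were -0.35 and -0.26. Of the dystroglycan genes Dag1, the receptor itself, had -0.42 ± 0.23 and Pomt1, a glycosyltransferase it needs, -0.33 ± 0.13 with the combination (edgeR adjusted p = 0.510 and 0.304). Among adaptors, 11 of 21 were below vehicle with the combination (43.6% of all genes were), including Lims1 at -0.23 ± 0.09 and Rap1a at -0.36 ± 0.14, while Parvb was at 0.73 ± 0.33 (edgeR adjusted p = 0.281, 0.295 and 0.398).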

How the data were processed

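Gene-level read counts of 24 bulk RNA-seq libraries were used as the authors deposited them, in 1 table of raw counts. Per the labels' protocols, RNA was purified with a Qiagen RNeasy Plus kit and libraries were made with the KAPA RNA HyperPrep kit after ribosomal RNA removal with QIAseq FastSelect; the labels also call the molecule polyA RNA, which was not resolved. The submitters' processing notes list build mm10 and the tools STAR, FastQC and DESeq2. Tool versions, counter, annotation and whether strand was used were not given in the sources used here.

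Here counts were tested with edgeR 4.0.16 (R 4.3.3) by the quasi-likelihood test, with TMM scaling, a filter by group (filterByExpr, minimum count 10, minimum total 15), 1 fit over 4 groups of 6 libraries (20 residual degrees of freedom) and Benjamini-Hochberg adjustment over 15385 genes at a threshold of 0.05. The alternatives were DESeq2 1.42.0, limma 3.58.1 (voom with sample quality weights), other scalings and filters, covariates, and leaving out libraries. Ratios used counts + 0.5. Exon lengths came from GENCODE (GRCm38) and promoters from RefSeq (GRCm38.p6). Figures were drawn with matplotlib 3.10.9 (Python 3.11.15). Tested on simulated counts for the combination against vehicle over 15270 genes, the fit recovered 60 of 100 genes changed 2-fold and 86 of 100 changed 4-fold, with 11 false calls. The counts were drawn from the fitted model itself, with 200 genes changed and no neuron-poor or liver-positive libraries built in. In the real comparison 19 genes were called, so these rates do not measure the power for the members. Depth ran from 5391543 to 42321550 counts, and a floor of 3 counts covers counting error only. No 2 libraries of a group were duplicates (lowest chi-square per degree of freedom 18.9 over 60 pairs).

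Members and gene lists were chosen with earlier results of these data known. Members named were the 3 with the smallest p in each comparison with vehicle and a fixed set of chains of Schwann cells, vessels, leukocytes and the common trimers; of each pathway list, the 2 with the smallest p and any that passed. A member is counted in the totals but not reported here by itself.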

Additional observations from a re-analysis of the deposited data

Results flagged for a closer look

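Among 88 groups of 6 libraries (22 members in 4 groups), 8 held a library far from the others of its group. Chance marks about 1 in 20 groups if values are normal and groups independent. Here CPM were not on a log scale and the groups reuse the same 24 libraries, so the count of 8 cannot be set against that rate. In ERKi library 3, Lama2 was at 206.6 CPM (the others 786.5 to 997.5), Itgb4 at 105.2 CPM (299.8 to 394.4) and Itgam at 26.91 CPM (11.91 to 15.62). In CDKi library 3, Itgam was at 33.41 CPM (9.825 to 16.19) and Itgb2 at 28.97 CPM (9.879 to 15.85). In vehicle library 4, Itga9 was at 13.02 CPM (18.38 to 21.53) and Lamb2 at 259.7 CPM (178.3 to 203.8). In vehicle library 5, Itga6 was at 865.4 CPM (521.7 to 635.4).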

How the results depend on the processing

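For the combination against vehicle, DESeq2 called 3 members, as did edgeR without the liver-positive libraries, and leaving out 1 library at a time gave 0 to 3, with 3 without vehicle library 4 and 1 without ERKi library 3. DESeq2 called 1 member against CDKi and 2 in the test of any difference among 4 groups. In these comparisons, settings other than leaving out 1 library called 0 to 143 and 0 to 188 of all genes. The counts of DESeq2 by itself are not given there, so its 1 and 2 members have no background of their own. Nor are counts over all genes given for the single fits without vehicle library 4 or without ERKi library 3. For Itgb3, Itga9 and Lamb3 the log2 fold change ran from -1.89 to -1.47, -0.81 to -0.64 and -2.04 to -1.60 with 1 library left out. Over all genes the combination calls (19) became 282 by DESeq2, 29 by limma-voom, 6 with no count filter, 10 with only the compared groups, 38 with a neuron covariate, 0 without the neuron-poor libraries, 108 without the liver-positive libraries, 1 without the deepest and shallowest library, and 0 to 94 with 1 library left out.

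Small ERKi log2 fold changes that changed sign were, by limma-voom, Itga2 0.00046, Itga7 0.032, Itgal 0.22 and Itgb4 0.18; with the neuron covariate, Itgal 0.037, Itgam 0.047 and Itgb4 0.090; without the neuron-poor libraries, Itga2 0.021, Itgal 0.14 and Itgam 0.032; without the liver-positive libraries, Itgb4 0.083; with a muscle covariate, Itgal 0.17; and without the deepest and shallowest library, Lama5 -0.10. For CDKi they were, by limma-voom, Itgal 0.23 and Itgb7 0.51; with no filter, Itga9 0.0064; without the neuron-poor libraries, Itgal 0.12, Itgb7 0.090 and Lamb2 -0.16; with a muscle covariate, Itgal 0.16 and Lamb2 -0.0060; and without the deepest and shallowest library, Itga9 0.0026, Lama5 -0.057 and Lamb3 0.041. Ratios that changed sign were Lamb1 to Lamb2 with ERKi (0.091 without the neuron-poor and 0.014 without the liver-positive libraries) and, without the latter, Itga7 to Itga6 with CDKi (-0.076) and Itgb8 to Itgb1 with ERKi (0.017). With 1 library left out, ranges that crossed 0 were Itgal -0.19 to 0.089, Itgb4 -0.22 to 0.083 and Lama5 -0.053 to 0.29 with ERKi, Itga9 -0.11 to 0.086, Itgal -0.28 to 0.17, Itgam -0.53 to 0.0052 and Itgb7 -0.23 to 0.24 with CDKi, and Itgb7 -0.020 to 0.73 with the combination. The cause was not tested. No paired analysis was possible because the labels carry no replicate numbers shared across groups. Lamb3, with 3 to 7 reads per combination library, is limited by depth.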
